A study of Drosophila melanogaster with 10 samples.

Results

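The genes described here encode 9 RNA-binding proteins of *Drosophila* neurons: elav, fne, Rbp9, Rbfox1, ps, mub, pum, Fmr1 and shep. They were chosen by name, and a probe set counted as theirs when the platform annotation gave it exactly that gene symbol. All 9 genes were found, with 16 of the 13966 probe sets tested: 4 for ps, 3 for shep, 2 each for Rbp9 and Rbfox1, and 1 each for the other 5 genes. No probe set with several symbols held one of them. Expression was measured in mushroom body neurons, the learning centre of the fly brain, at 0 h after puparium formation (6 arrays) and at 5 h (3 arrays), around the start of axon pruning. Animals of both ages carried UAS-EcRB1[W650A], a dominant negative ecdysone receptor, and the membrane marker UAS-mCD8::GFP, both driven by OK107-GAL4, in a yw/w background. Both ages thus carry the dominant negative receptor, and arrays of y,w animals were not analysed here. Axon pruning itself was not measured in these samples, and no difference between the ages is tied to it here. OK107-GAL4 is an insertion near ey that is active in mushroom body neurons and in some other cells. Each sample pooled 40 laser captures of about 100 cell bodies, and the number of animals is not given. On 1 more array the title and the age label disagree, so it was kept out of every comparison.

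RNA-binding proteins set which exons a neuron keeps, where its messages end, and when and where they are translated. The elav family, with elav, fne and Rbp9, carries RNA recognition motifs: elav is a nuclear protein used as a marker of postmitotic neurons and regulates splicing and 3' end choice, fne is its mostly cytoplasmic relative, and Rbp9 acts in neurons and in the female germ line. Rbfox1 and ps, the fly relative of mammalian Nova, regulate splicing, and mub is a KH-domain protein named for its expression in the mushroom body. Pumilio (pum) and the fragile X protein (Fmr1) repress translation of their target messages, and Fmr1 limits axon growth and branching in mushroom body neurons. The protein of shep takes part in the remodelling of neurons at metamorphosis.

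Values are log2 RMA signals, 1 per probe set and array, so a difference of 1 is a 2-fold change, and signals of different probe sets cannot be ranked against each other. The highest value of 8 control probe sets for mouse and yeast sequences, 3.73, was taken as the background. The arrays at 0 h fell into replicates 1 to 3 and replicates 4 to 6, which correlated across probe sets at Pearson r of 0.948 to 0.974 between the sets and at 0.970 to 0.991 within them. The 5 h arrays correlated with replicates 1 to 3 at 0.978 to 0.986 and with replicates 4 to 6 at 0.949 to 0.973. Replicates 1 to 3 were thus more like the 5 h arrays than like the other 0 h arrays. The 3' minus 5' signal of the actin controls, a sign of RNA quality, ran from 7.45 to 8.10 at 0 h and from 8.47 to 8.63 at 5 h. The neuronal identity of the samples was checked on fixed markers: all 7 mushroom body genes measured lay above background, as did 4 of 6 pan-neuronal genes (cac and para did not) and 7 of 8 glial genes (gcm did not). Of 7 neuroblast genes 4 lay above background, and ase, insc and grh did not. Genes of non-neural tissue were also above it: all 3 fat body genes, all 3 muscle genes and 2 of 4 hemocyte genes (Hml and srp were not).

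**Figure D1:**
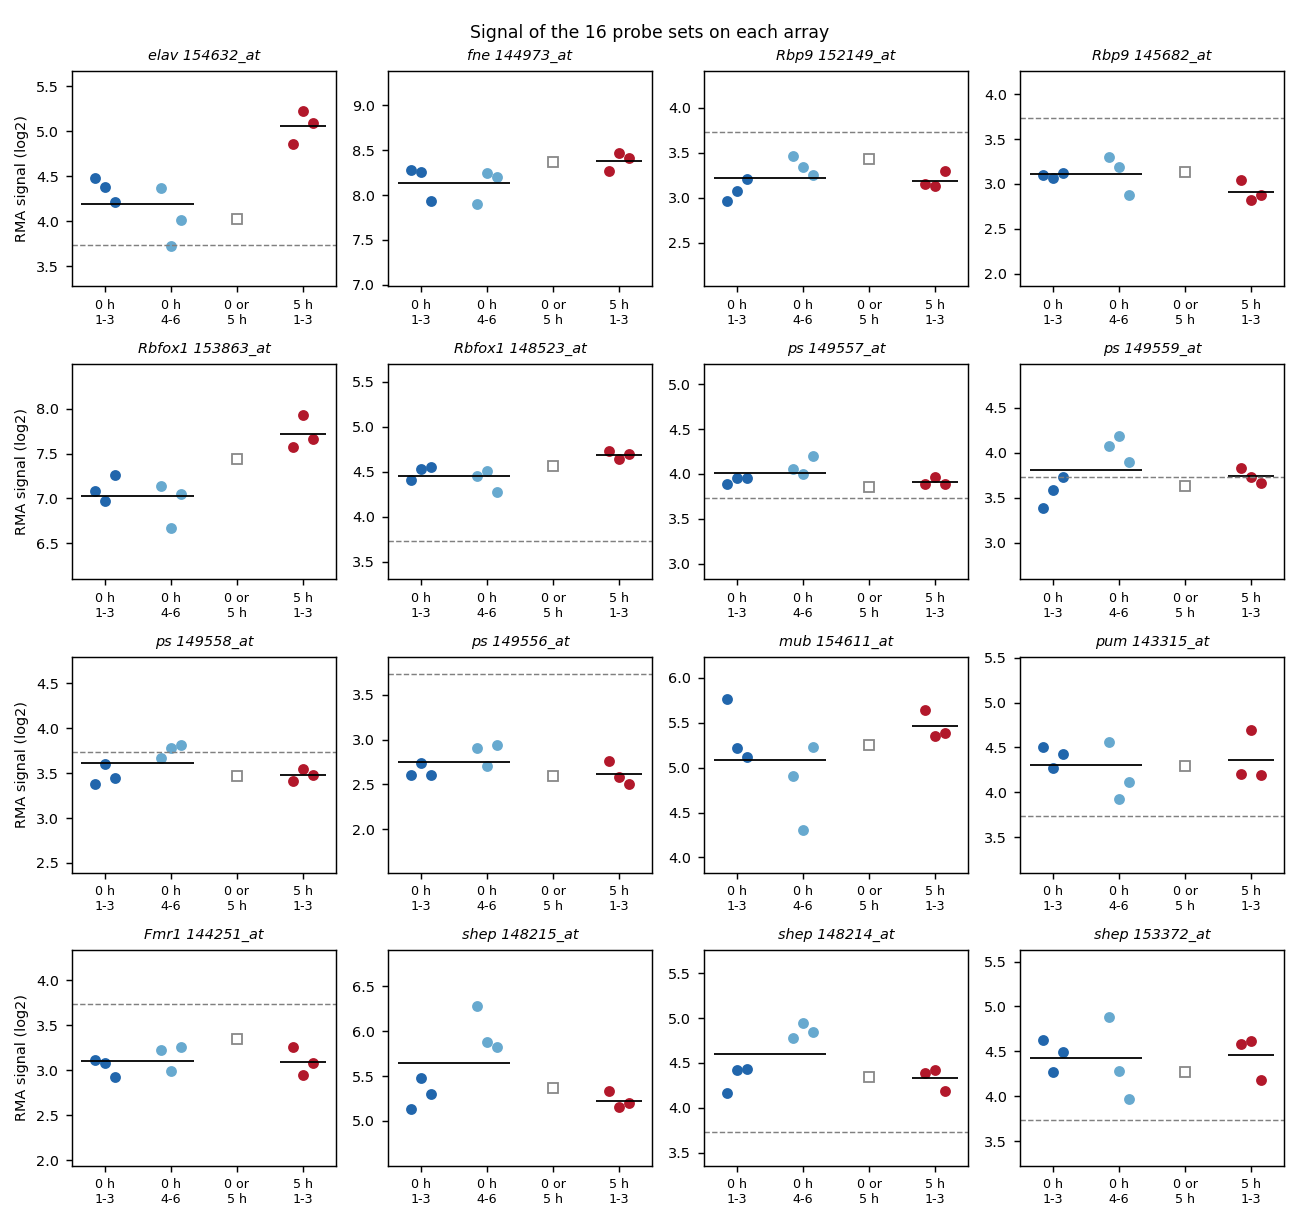
Signal (log2, vertical axis) of each of the 16 probe sets on each array, with 0 h replicates 1 to 3 in dark blue, 0 h replicates 4 to 6 in light blue, the array with conflicting ages as an open square and 5 h in red; lines are group means and the dashed line is the background of 3.73. Every panel spans the same range of log2 units, and elav and both Rbfox1 probe sets are the panels in which all 3 arrays at 5 h lie above all 6 at 0 h.

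Between 0 h and 5 h, elav and Rbfox1 passed as higher and no member passed as lower. Both calls depended on the arrays used, as given below, and Rbp9 and Fmr1 lay at background, where a fall could not show. elav was 1.82-fold higher at 5 h (95% interval 1.41 to 2.34), and Rbfox1 was 1.62-fold higher in its brighter probe set (1.31 to 2.00). These were 2 of the 16 probe sets under the threshold of 0.05 for p-values from limma after Benjamini-Hochberg adjustment over all probe sets, where 1.25% of all probe sets passed, 1.01% as higher and 0.236% as lower. At an unadjusted p of 0.05 the count was 3 of 16, against 14.7% of all. Over the 16 the median difference, 5 h minus 0 h, was -0.016 on the log2 scale, and over all probe sets it was -0.066. In 3 member probe sets every array at 5 h lay above every array at 0 h, and in none below; over all probe sets these shares were 5.39% and 4.4%, or 9.79% in either direction. In captured tissue, fewer cells of a type and less RNA per cell cannot be told apart.

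In the elav family elav rose, fne did not pass and Rbp9 lay at background. The single probe set of elav read 4.48, 4.38, 4.21, 4.37, 3.73 and 4.01 on the log2 scale in 0 h replicates 1 to 6, and 4.86, 5.23 and 5.09 at 5 h. The ages did not overlap, with a gap of 0.38 between the highest array at 0 h and the lowest at 5 h, although elav was dim at 0 h: replicate 5 lay at the background. The mean went from 4.20 ± 0.28 (SD, n = 6) to 5.06 ± 0.19 (SD, n = 3), a difference of 0.86 ± 0.17 (SE; limma adjusted p = 0.033). A larger difference was seen in 1.37% of all probe sets. Fitted on replicates 1 to 3 as the only 0 h arrays, the difference was 0.70 (adjusted p = 0.0055), where 8.11% of all probe sets passed. Fitted on replicates 4 to 6 it was 1.02 (adjusted p = 0.0036), where 22% passed.

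The fne probe set was well above background on every array. It read 8.27, 8.25, 7.93, 7.90, 8.24 and 8.20 at 0 h and 8.27, 8.47 and 8.41 at 5 h (log2 signal). The ages just touched, since the lowest array at 5 h matched the highest at 0 h. The means were 8.13 ± 0.17 and 8.38 ± 0.10, a difference of 0.25 with a 95% interval of -0.01 to 0.51 (limma adjusted p = 0.37). After quantile normalization of the 9 arrays that difference was 0.058, and with array weights it was 0.32 and passed (adjusted p = 0.037).

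Rbp9 was not above background on any array. Its probe sets read between 2.97 and 3.46 and between 2.88 and 3.30 at 0 h, and between 3.13 and 3.29 and between 2.82 and 3.05 at 5 h (log2 signal). Both ages thus have only an upper bound, the background of 3.73, and no fold is given.

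Whether elav and fne, the paralogs above background, changed by different amounts was tested within arrays, as the log2 difference of 2 probe sets on the same array. The size of such a difference depends on the probes, so only its change between the ages is read. The difference elav minus fne went from -3.94 ± 0.35 (SD of 6 arrays) to -3.32 ± 0.09 (SD of 3), a change of 0.61. The 3 arrays at 5 h lay from -3.42 to -3.24 and the 6 at 0 h from -4.52 to -3.53, without overlap. The exact permutation test (two-sided, 84 regroupings of the arrays) gave p = 0.036, or 0.054 adjusted over the 3 pairs, so this pair did not pass. The pairs with Rbp9 (changes of 0.89 for elav and 0.27 for fne) set a gene against a probe set at background, so they repeat the change of elav or of fne and compare no paralogs. The elav minus fne pair passed after quantile normalization (change 0.82, adjusted p = 0.036). It also passed with the array of conflicting ages as 0 h (0.67, adjusted p = 0.025). With that array as 5 h the change fell to 0.36 and did not pass (adjusted p = 0.28).

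**Figure D2:**
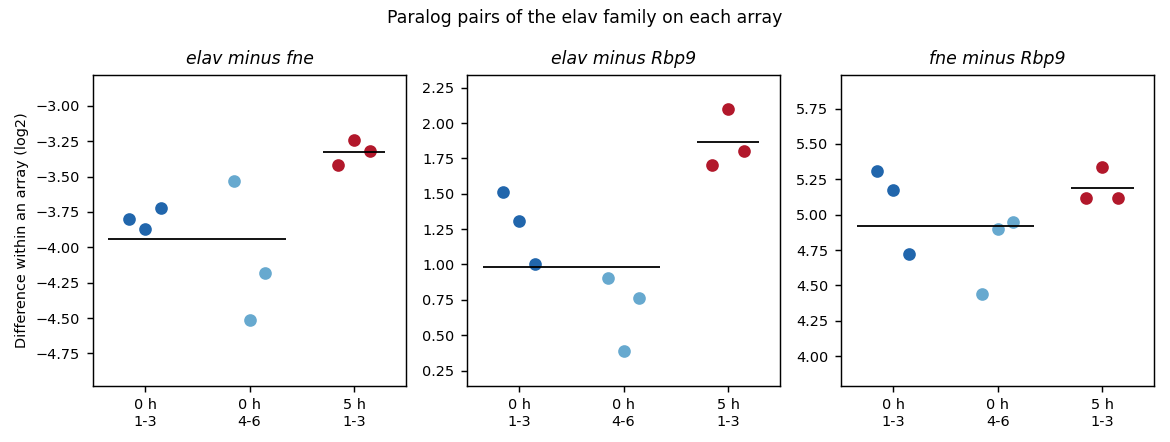
Within-array log2 difference of each pair of elav family probe sets (vertical axis), with 0 h replicates 1 to 3 in dark blue, 0 h replicates 4 to 6 in light blue and 5 h in red; lines are the means of 6 and 3 arrays. The 5 h arrays lie above all 0 h arrays for elav minus fne; Rbp9 was at background on every array, so the panels with Rbp9 show elav and fne against background.

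Among the splicing regulators, Rbfox1 was higher at 5 h in both probe sets, and 1 passed. The brighter one (153863_at) read 7.08, 6.97, 7.26, 7.14, 6.67 and 7.05 at 0 h and 7.57, 7.93 and 7.66 at 5 h (log2 signal). All arrays at 5 h stood above all at 0 h, by at least 0.31. Its mean went from 7.03 ± 0.20 to 7.72 ± 0.19, a difference of 0.69 ± 0.14 (SE; limma adjusted p = 0.039). With only replicates 1 to 3 as 0 h arrays the difference was 0.62 (adjusted p = 0.011). With only replicates 4 to 6 it was 0.77 (adjusted p = 0.0086). After quantile normalization it was 0.49 and did not pass (adjusted p = 0.18).

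The dimmer Rbfox1 probe set (148523_at) read 4.41, 4.53, 4.55, 4.45, 4.51 and 4.27 at 0 h and 4.73, 4.65 and 4.69 at 5 h. The ages did not overlap here either, by a narrower gap of 0.09. Its difference was 0.24, with a 95% interval of 0.02 to 0.45, and it did not pass over all probe sets (limma adjusted p = 0.30). The brighter minus dimmer signal changed by 0.46 between the ages (exact permutation p = 0.012, the smallest possible, in a test chosen after the values were seen), so the probe sets of this gene gave unequal sizes. No source used here says which Rbfox1 transcripts each one reads.

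The 4 ps probe sets were dim. Only the brightest (149557_at) lay above background on all 9 arrays, at 4.01 ± 0.11 at 0 h and 3.91 ± 0.04 at 5 h (limma adjusted p = 0.62). The next (149559_at) read 3.81 ± 0.30 and 3.74 ± 0.08, with 4 of 6 arrays at 0 h and 1 of 3 at 5 h above background. The others had 2 of 9 arrays and none above it. The 95% interval of the brightest, -0.32 to 0.12, does not reach the rise of elav or Rbfox1.

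The mub probe set read 5.76, 5.22, 5.12, 4.90, 4.30 and 5.23 at 0 h and 5.65, 5.36 and 5.39 at 5 h (log2 signal). The ages overlapped, with 0 h replicate 1 the highest of all arrays and replicate 5 the lowest. The difference was 0.37 with a wide interval, -0.16 to 0.90 (limma adjusted p = 0.48). Relative to 0 h replicates 1 to 3 it was 0.096 (adjusted p = 0.83). Relative to replicates 4 to 6 it was 0.65 and passed by a narrow margin (adjusted p = 0.0499).

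**Figure D3:**
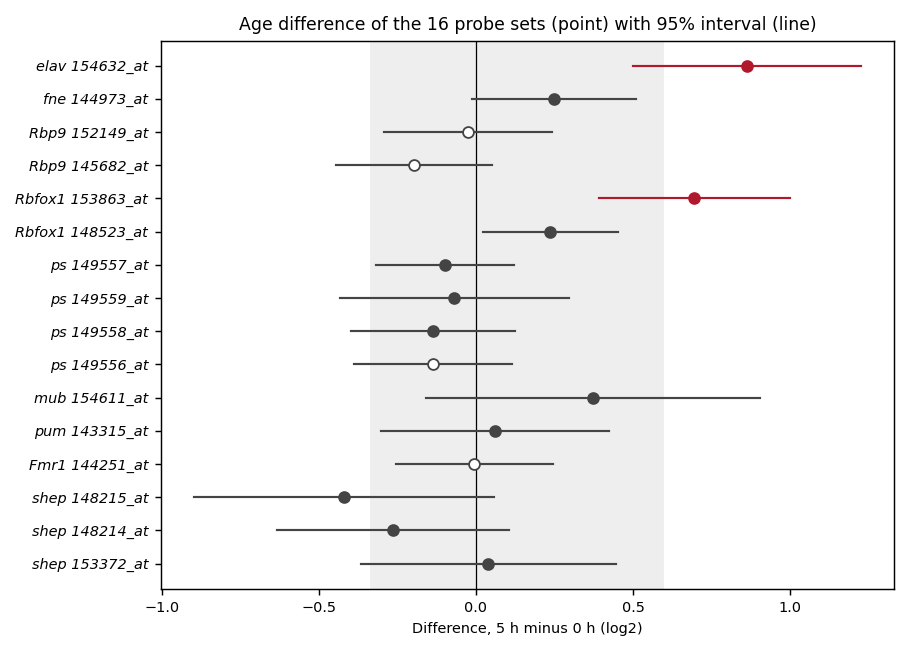
Difference, 5 h minus 0 h (log2, horizontal axis), of each probe set with its 95% interval from limma; red marks an adjusted p under 0.05, open points are probe sets above background on no array, and the grey band holds the middle 90% of all probe sets. The points for elav and the brighter Rbfox1 probe set, at 0.86 and 0.69, lie right of the band, and the brightest shep probe set, at -0.42, lies left of it.

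The translational repressors gave no call. For pum the values were 4.50, 4.28, 4.43, 4.56, 3.93 and 4.11 at 0 h and 4.20, 4.69 and 4.19 at 5 h (log2 signal). The 5 h arrays were spread, as replicate 2 was the highest of all 9 and the other 2 lay inside the 0 h range. The difference was 0.061, with a 95% interval of -0.30 to 0.42 (limma adjusted p = 0.86). Fmr1 was above background on no array: it read 2.92 to 3.26 at 0 h and 2.94 to 3.26 at 5 h, so it has only the upper bound of 3.73 at both ages.

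The 3 shep probe sets did not move alike. The brightest (148215_at) read 5.13, 5.48 and 5.29 in 0 h replicates 1 to 3, 6.28, 5.88 and 5.83 in replicates 4 to 6, and 5.33, 5.16 and 5.19 at 5 h. The 5 h arrays lay within the range of replicates 1 to 3 and below all of replicates 4 to 6. Over all 9 arrays the difference was -0.42, with a 95% interval of -0.90 to 0.06 (limma adjusted p = 0.39). Relative to replicates 1 to 3 it was -0.073 (adjusted p = 0.80). Relative to replicates 4 to 6 it was -0.77 and passed (adjusted p = 0.0057). The second probe set (148214_at) followed the same order, with 4.34 in replicates 1 to 3, 4.85 in replicates 4 to 6 and 4.33 at 5 h as means; its differences were -0.0077 (adjusted p = 0.98) and -0.52 (adjusted p = 0.015). The third (153372_at) read 4.42 ± 0.32 at 0 h and 4.46 ± 0.24 at 5 h, with no such split.

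The 2 sets of arrays at 0 h thus separated some members and not others. In 6 of the 16 probe sets every array of replicates 4 to 6 lay above every array of replicates 1 to 3: 3 of ps, 2 of shep and 1 of Rbp9. In none did they all lie below, while over all probe sets the shares were 27.3% above and 16.3% below. Against replicates 4 to 6 alone the calls among the members were 3 higher (elav, Rbfox1 and mub) and 2 lower (both shep), where 12.5% and 9.5% of all probe sets were called in those directions, and against replicates 1 to 3 alone they were elav and Rbfox1. elav and Rbfox1 overlapped between the sets of 0 h arrays.

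**Figure D4:**
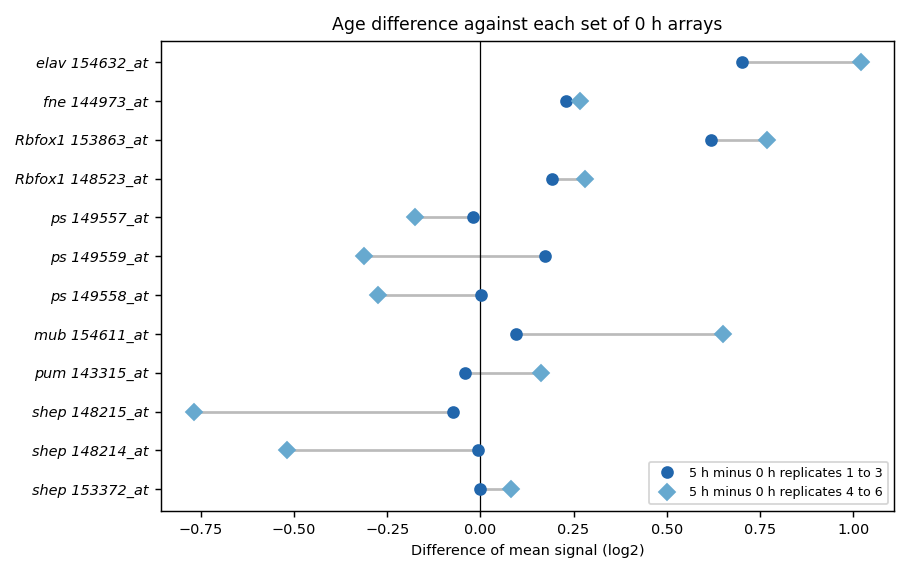
Difference of the mean signal at 5 h from the mean of 0 h replicates 1 to 3 (circles) and of 0 h replicates 4 to 6 (diamonds), in log2, for the 12 probe sets above background on at least 1 array. For elav (0.70 and 1.02) and the brighter Rbfox1 probe set (0.62 and 0.77) both points lie on the same side, while 2 shep probe sets lie near 0 against one set and at -0.77 and -0.52 against the other.

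The calls of elav and Rbfox1 depended on the arrays used. Counting the array with conflicting ages as 0 h left neither past the threshold (elav difference 0.89, adjusted p = 0.064; Rbfox1 0.63, adjusted p = 0.13), in a limma fit that called 0 of all probe sets and had 12.1% at an unadjusted p under 0.05. Counting it as 5 h left Rbfox1 (0.62, adjusted p = 0.029) and not elav (0.60, adjusted p = 0.18), with 2.52% of all called. With the 3' minus 5' signal of actin as a covariate the differences were 1.06 for elav and 0.78 for Rbfox1, and neither passed (adjusted p = 0.9997 for both), in a fit that called 0 of all probe sets with 3.95% at an unadjusted p under 0.05. That signal did not overlap between the ages (at most 8.10 at 0 h, at least 8.47 at 5 h), so this fit can hardly tell it from age. Leaving out 0 h replicate 3 (adjusted p = 0.057), 0 h replicate 6 (0.058), or 5 h replicate 1 (0.073), 2 (0.20) or 3 (0.22) ended the call of elav. Leaving out 0 h replicate 2 (adjusted p = 0.072), 0 h replicate 6 (0.059), or 5 h replicate 1 (0.087), 2 (0.21) or 3 (0.20) ended that of Rbfox1. These fits called 2.83%, 0.702%, 0.752%, 1.65%, 1.01% and 1.03% of all probe sets without 0 h replicates 1 to 6 in turn, and 0.337%, 0.193% and 0.136% without 5 h replicates 1 to 3. The other settings called 1.82% after quantile normalization, 1.15% after median centring, 13% with array weights, 1.01% with a trended and robust prior, 5.32% with the replicate number as a block, 3.85% with a term for 0 h replicates 4 to 6, and 1.34% and 2.23% of the probe sets above the median and above the highest background value. Without any 1 array the difference stayed between 0.77 and 0.96 for elav and between 0.59 and 0.77 for Rbfox1.

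**Figure D5:**
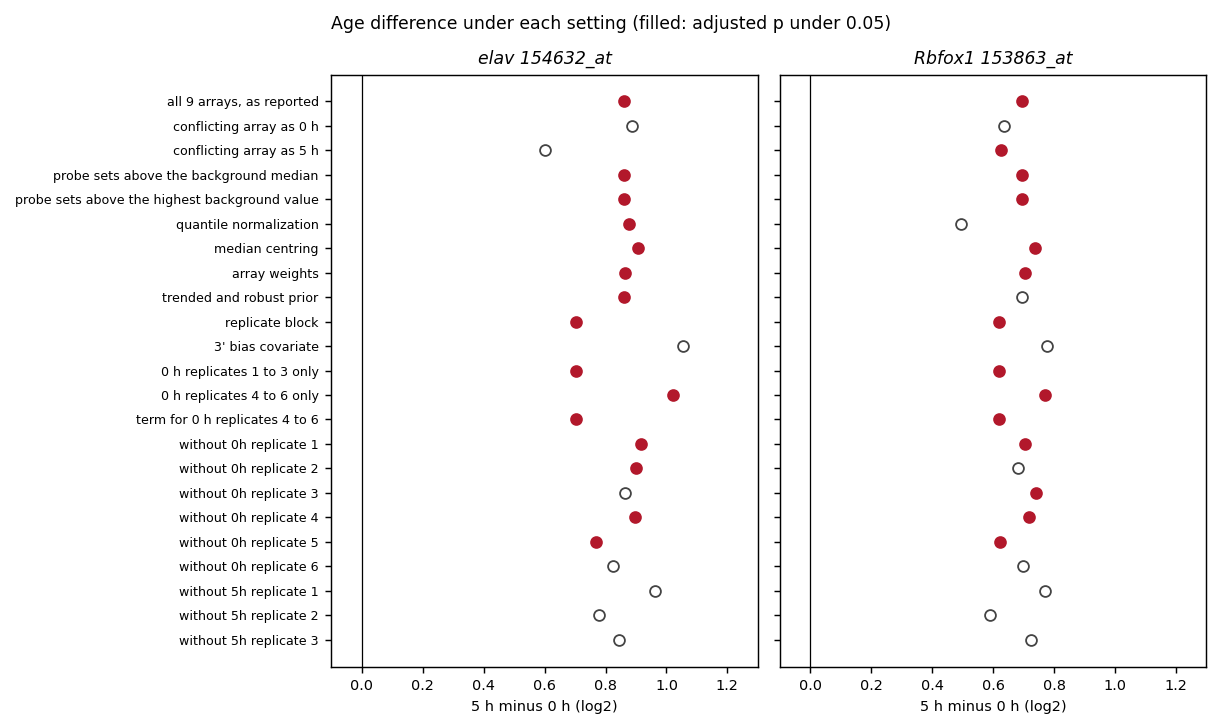
Difference, 5 h minus 0 h (log2, horizontal axis), of elav and of the brighter Rbfox1 probe set under each setting (vertical axis); filled points had an adjusted p under 0.05 in limma over all probe sets of that fit. All points lie above 0, from 0.60 to 1.06 for elav and from 0.49 to 0.78 for Rbfox1, and the calls come and go with the arrays left out.

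Some markers of cell types were also higher at 5 h. The mean signal of the 7 mushroom body genes ran from 8.02 to 8.55 at 0 h and from 8.73 to 8.76 at 5 h, and that of the 6 pan-neuronal genes from 5.46 to 5.77 and from 5.75 to 5.86. Of the mushroom body genes toy, 14-3-3zeta and br rose (2.09-fold, 1.58-fold and 1.67-fold, limma adjusted p = 0.038, 0.025 and 0.041). No pan-neuronal gene passed, and 1 of the 6 had an unadjusted p under 0.05, against 14.7% of all probe sets. None of the 7 mushroom body genes passed after quantile normalization, with the 3' bias covariate or with the array of conflicting ages as 0 h, and 1 passed with it as 5 h. The mean of the 8 glial genes ran from 4.75 to 5.06 and from 5.45 to 5.56; bdl, wun2 and nrv2 rose (3.57-fold, 3.74-fold and 2.44-fold; limma adjusted p = 0.00068, 0.0089 and 0.018), and 5 did not pass. Of these repo read 0.83 (5 h minus 0 h, log2), and the other 4 were lower at 5 h: Gs2 at -0.37, loco at -0.27, gcm, at background, at -0.14 and moody at -0.11 (adjusted p = 0.25, 0.23, 0.34, 0.62 and 0.71 in that order). The 3 risers passed against each set of 0 h arrays; 3 glial genes passed after quantile normalization, and none with the conflicting array as 0 h or with the 3' bias covariate. Against 0 h replicates 4 to 6 the list had 4 genes higher and 2 lower. For the 4 hemocyte genes the ranges were 3.73 to 4.07 and 4.26 to 4.41, with Hml and srp at background; the differences were 1.39 for crq, 0.40 for Pxn, -0.069 for Hml and -0.26 for srp, and none passed. For the 7 neuroblast genes the ranges were 4.10 to 4.33 and 4.05 to 4.29. Of 3 muscle genes bt rose 2.08-fold (limma adjusted p = 0.022), Mlc2 and up read -0.25 and -0.13 without passing, and the list median was -0.13. The mean of the 3 fat body genes ran from 5.81 to 9.24 at 0 h and from 5.86 to 7.85 at 5 h, so it varied widely between arrays. None of the 3 passed, with a median difference of -0.53. The 3' minus 5' signal of actin was higher at 5 h (exact permutation p = 0.012), and that of GAPDH overlapped between the ages, at 4.36 to 5.66 and 5.49 to 5.64 (exact permutation p = 0.17). The part of these in the differences of elav and Rbfox1 was not tested.

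Among the other RNA-binding regulators listed, Syp alone passed over all 9 arrays, while some uncalled genes had larger differences with a wider spread. Of 20 other splicing regulators none passed in limma, and the median difference was -0.036. An unadjusted limma p under 0.05 was seen for 5 of the 20, against 14.7% of all probe sets. An exact permutation p under 0.05 was seen for 3, a count for which no share of all probe sets is given. The differences largest in size were those of the hnRNP gene Hrb87F, 7.62 ± 0.87 at 0 h and 8.67 ± 0.18 at 5 h (adjusted p = 0.28), and the SR protein gene SF2, 8.51 ± 0.62 and 9.45 ± 0.13 (adjusted p = 0.17). Both rose against 0 h replicates 4 to 6 alone, by 1.83 and 1.48 on the log2 scale (adjusted p = 0.00014 and 0.00018), and read 0.27 and 0.41 against replicates 1 to 3 (adjusted p = 0.27 and 0.12). Of 14 other regulators of translation and localisation, 4 had an unadjusted p under 0.05, against 14.7% of all probe sets. Of the 14, 1 rose, Syp, which sets temporal identity in mushroom body neurons, by 1.71-fold (adjusted p = 0.034, list median 0.080). The difference of me31B, a gene for an RNA helicase of messenger ribonucleoprotein granules named after its value was seen, was larger, 2.08-fold, and did not pass (adjusted p = 0.31). Syp rose against both sets of 0 h arrays, by 0.59 and 0.95 on the log2 scale.

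The elav relatives outside the family also differed with the 0 h arrays. Sxl, the sex determination gene with related RNA recognition motifs, had means of 5.22 ± 0.21 at 0 h and 5.14 ± 0.08 at 5 h (limma adjusted p = 0.78). Its sister gene ssx read 7.04 ± 0.75 and 7.16 ± 0.18 (adjusted p = 0.88). Its direction turned with the arrays: 5 h minus 0 h was -0.55 with only replicates 1 to 3 in the fit (adjusted p = 0.020) and 0.79 with only replicates 4 to 6 (adjusted p = 0.0038).

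Known targets of the members were read from fixed lists. Of 8 elav targets measured, 1 rose, the cell adhesion gene Nrg, whose neuronal splicing elav directs, by 1.66-fold (limma adjusted p = 0.021), and 7 did not pass. Of the 8, 4 had an unadjusted p under 0.05, against 14.7% of all probe sets. The count at an exact permutation p under 0.05 was also 4, for which no share of all probe sets is given. The list median was 0.30, against -0.066 over all probe sets and -0.033 over those above background. The marker lists had medians of 0.62 (mushroom body), 0.36 (glia), 0.27 (pan-neuronal) and -0.10 (neuroblast), so a median of this size was not particular to elav targets. Nrg rose against 0 h replicates 1 to 3 (0.82) and against replicates 4 to 6 (0.65). Of 8 targets of Fmr1 and pum none passed in limma and none had an unadjusted p, or an exact permutation p, under 0.05, with a median of 0.041; against 0 h replicates 4 to 6 alone 1 was higher and 1 lower. The microtubule-binding gene futsch, which Fmr1 represses, went from a mean of 7.49 ± 0.47 to 7.80 ± 0.18 at 5 h (adjusted p = 0.54), and the receptor gene Dscam1 4.62 ± 0.29 and 4.33 ± 0.19 (adjusted p = 0.44). Dscam1 read -0.049 with only 0 h replicates 1 to 3 in the fit (adjusted p = 0.90) and -0.53 with only replicates 4 to 6 (adjusted p = 0.018). The signal of a probe set does not give the share of each splice form, so splicing by these proteins was not measured.

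Genes with only a bare CG number as symbol were left out when genes like elav or Rbfox1 were picked. The genes picked as most like elav over the 9 arrays were XRCC1, Hrd3, Fgop2, crq and Dif, with Pearson r of 0.967, 0.964, 0.960, 0.956 and 0.953 among 6361 genes. These arrays share the age difference, so r was also taken over the 6 arrays at 0 h, where it was 0.87 to 0.97 for these 5 genes. Those 6 are part of the 9 arrays used to pick the genes, so a high r on them is no separate check. At 0 h the means of XRCC1 (3.53), crq (3.68) and Dif (3.29) were below the background of 3.73, and that of Dif was below it at 5 h too (3.66), so their r rests in part or wholly on values at background. None of these 5 genes passed in limma, and crq is also on the hemocyte list. For Rbfox1 the genes picked were Irk2, Galphaq, Pdss2, px and SrpRalpha (r = 0.963, 0.962, 0.946, 0.944 and 0.939). Over the 0 h arrays, again part of those used to pick them, r was 0.78 to 0.87. Of these Irk2, Galphaq, Pdss2 and px were higher at 5 h in limma (adjusted p = 0.011, 0.049, 0.022 and 0.015). SrpRalpha did not pass (adjusted p = 0.053). The pattern of elav and that of the brighter Rbfox1 probe set correlated with each other at 0.934 over 9 arrays and 0.676 over the 6 at 0 h. Over those 6 arrays r was higher between elav and uncalled members, 0.893 for pum and 0.779 for mub. Between elav and its paralog fne r was 0.563 over 9 arrays and -0.186 over the 6 at 0 h, and between elav and shep it was -0.617 and -0.361. These values describe few arrays that share a split at 0 h.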

How the data were processed

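RNA from laser-captured mushroom body neurons was amplified in 2 rounds, per the labels' protocols, and each of 10 samples was hybridised to 1 array. The deposited values are log2 signals per probe set, which, per the submitters' processing notes, the authors made with RMA and Affymetrix Expression Console; versions, and which arrays were normalized together, are not given in the sources used here. RMA compresses the fold changes of dim probe sets. Precision is limited by how few arrays there are.

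From these values, the 14010 probe sets less 44 controls were tested for 5 h against 0 h with limma 3.58.1 in R 4.3.3 (two-sided, Benjamini-Hochberg adjustment over 13966, threshold 0.05), with no filter or further normalization. Symbols came from the platform annotation (12443 probe sets with 1 symbol, 327 with several, 1196 with none), and all 9 member symbols matched their gene identifiers. Single values were tested by exact permutation, with 3 pairs adjusted together. Each listed gene was read by its brightest probe set. Named were all member probe sets, up to 4 called genes (else the 2 largest differences in size) of each list, and the 5 genes most correlated with elav and with Rbfox1. Genes with only a bare CG number as symbol were left out of those 5. The scripts were tested on simulated data. Members, lists and settings were chosen with earlier results of these data known. Samples are labelled as biological replicates, and p-values measure the spread between them.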

Additional observations from a re-analysis of the deposited data

How the results depend on the processing

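Over all probe sets 141 were higher and 33 lower at 5 h, and 2 member probe sets were higher and 0 lower. The corresponding counts moved as follows: 0 and 0, with 0 members, with the array of conflicting ages as 0 h; 295 and 57, with 1 member, with it as 5 h; 0 and 0, with 0 members, with the 3' bias covariate; 26 and 6, with 0 members, at a threshold of 0.01; 1106 and 703 with array weights; 610 and 522 against 0 h replicates 1 to 3; 1750 and 1327, with 2 members lower, against replicates 4 to 6; 226 and 311 with a term for replicates 4 to 6. Lower calls were 101 after quantile normalization, 20 after median centring and 21 with a trended and robust prior, with 1 member higher after quantile normalization and with that prior (Rbfox1 adjusted p = 0.18 and 0.079). Leaving out each array in turn gave 14 to 347 higher, 5 to 54 lower and 0 to 2 members higher. The cause was not tested. Filters on dim probe sets moved no count by over 1.5 times.

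With the replicate number as a replicate block, 393 were higher and 350 lower; elav (0.70, adjusted p = 0.020) and Rbfox1 (0.62, adjusted p = 0.035) passed. Samples share only a number: deviations of same-numbered samples correlated at -0.40, 0.0049 and 0.22, and not every sample correlated best with its own number.

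The pairs with Rbp9 compare a gene with background. The elav minus Rbp9 difference (0.89, adjusted p = 0.036) did not pass with the conflicting array as 5 h (0.57), nor against 0 h replicates 1 to 3 (0.59) or 4 to 6 (1.18), where 3 arrays against 3 cannot give p under 0.1. The elav minus fne pair passed with the conflicting array as 0 h (0.67) and after quantile normalization (0.82), where fne minus Rbp9 turned to -0.00068. With the conflicting array as 5 h the elav minus fne change was 0.36 and did not pass (exact permutation adjusted p = 0.28). Without 1 array the changes ran from 0.50 to 0.69 (elav minus fne), 0.77 to 0.99 (elav minus Rbp9, which passed in none of the 9 fits, adjusted p 0.054 to 0.11) and 0.18 to 0.35 (fne minus Rbp9). With fewer arrays the smallest possible permutation p is larger, 0.018 without a 0 h array and 0.036 without a 5 h array. A pair that reaches it alone is adjusted to 0.054 or 0.11, so it cannot pass there whatever its change.

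Uncalled members turned sign. Against 0 h replicates 1 to 3, and with the block or the set term, ps read 0.17 (149559_at) and 0.00047 (149558_at), pum -0.041 and shep -0.0017 (153372_at). With the 3' bias covariate ps read 0.065 (149557_at), 0.062 (149559_at) and 0.018 (149558_at) and shep 0.27 (148215_at). With array weights ps read 0.040 (149559_at), and with the conflicting array as 5 h shep read -0.0081 (153372_at). Without 1 array these ran from -0.15 to 0.0073 (ps 149559_at), -0.10 to 0.15 (pum) and -0.051 to 0.18 (shep 153372_at). An exact permutation test, adjusted over all probe sets, cannot pass (elav and Rbfox1 adjusted p = 0.28). Probe sets above background on no array were not compared across settings.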

Other observations

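The array whose title gives 5 h and whose age label and description give 0 h belongs to no group. On it elav read 4.02 (log2 signal), inside the 0 h range of 3.73 to 4.48 and below the 3 arrays at 5 h. The brighter Rbfox1 probe set read 7.44, above all arrays at 0 h (highest 7.26) and below all at 5 h (lowest 7.57). The fne probe set read 8.37, above the highest 0 h value of 8.27, and the brightest shep probe set read 5.36, within the range of 0 h replicates 1 to 3. The values of mub and pum were 5.25 and 4.29, inside the 0 h ranges. Its 3' minus 5' actin signal was 8.44, above the 0 h arrays (highest 8.10) and just below the 5 h arrays (lowest 8.47).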
